A study of Mus musculus with 6 samples.

Results

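The 10 Toll-like receptor genes Tlr1, Tlr2, Tlr3, Tlr4, Tlr5, Tlr6, Tlr7, Tlr8, Tlr9 and Tlr13 were followed in hepatic CD11c+ cells, a fraction that holds dendritic cells (DCs) and CD11c-expressing macrophages. The genes were taken by symbol from the 31426 genes of the deposited table of estimated counts, all 10 were found, and all 10 passed the filter on low counts. They fall into 5 receptors of the cell surface (Tlr1, Tlr2, Tlr4, Tlr5 and Tlr6) and 5 receptors of endosomes (Tlr3, Tlr7, Tlr8, Tlr9 and Tlr13).

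Toll-like receptors are membrane proteins of innate immune cells that bind parts of microbes, or nucleic acids, and start NF-kB, MAP kinase and interferon signalling. The surface receptors bind lipoproteins, lipopolysaccharide or flagellin, while the endosomal receptors bind RNA or DNA and must first be carried out of the endoplasmic reticulum and cut by proteases. In the liver, these receptors are known for sensing microbial products that arrive from the gut with the portal blood.

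The study compared male mice with Atg5 deleted in CD11c+ cells (Atg5 CD11cKO) with floxed littermate controls (WT), to ask what autophagy does in these cells when dietary fat is high. The Atg5 CD11cKO mice were homozygous for the floxed Atg5 allele and for a Cre transgene driven by Itgax, the gene of CD11c. Deletion is thus directed to any cell that uses that promoter. By RT-qPCR in mice on normal chow, the study reported Atg5 absent from hepatic CD11c+ cells of Atg5 CD11cKO mice and unchanged in CD11c- cells. In the libraries used here, the extent of deletion was not measured apart from the Atg5 level below. The labels give the strain as C57BL/6, the methods place the floxed Atg5 mice on C57BL/6J, and the mice, listed as 4 to 8 weeks old, received HFD, a high-fat diet, over 14 weeks, with no group on normal chow among these libraries. Libraries took 10 ng of RNA each, from cells isolated with CD11c magnetic beads, with 3 libraries labelled WT (21, 22 and 23) and 3 labelled Atg5 CD11cKO (25, 26 and 27). Which mouse or mice a library stands for is not given, so p-values measure the spread between libraries, which may be technical.

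The libraries held 31064570 to 34034675 estimated counts, and levels are given as CPM, counts brought to a common library size with TMM, a factor that corrects for composition. Atg5, on chromosome 10 from 44268358 to 44364291 (mm10), had 54.0 and 49.8 CPM in WT 21 and WT 22, whereas the library labelled WT 23 had 22.1 CPM, beside 20.8 to 21.3 CPM in the Atg5 CD11cKO libraries. Counts are per gene, so reads from exons outside the deleted part still count toward Atg5. Over genes with at least 20 counts in both libraries, the squared difference of the library labelled WT 23 from each Atg5 CD11cKO library was 6.05 to 7.65 times that of counting noise, as it was between Atg5 CD11cKO libraries (6.54 to 7.42 times). It was 240.3 to 241.5 times from WT 21 and WT 22, which differed from each other by 10.3 times. No pair differed by less than the counting noise, and every library was kept as its own sample. That check cannot tell libraries of separate mice from repeats of a single RNA source. Itgax lay between 432 CPM (WT 21) and 492 CPM (Atg5 CD11cKO 25). Because the library labelled WT 23 goes against its label in Atg5, it was left out of the main account, which sets WT 21 and WT 22 against the 3 Atg5 CD11cKO libraries (the 5-library comparison), and each receptor is also given over all 6 libraries as labelled. Values of accessory and signalling genes are those of the 5-library comparison unless another is named. That choice was made with earlier results of these data known.

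In the 5-library comparison, 7 of the 10 receptors were higher in Atg5 CD11cKO cells and 1 was lower at an adjusted p under 0.05 (quasi-likelihood test of edgeR, adjusted over all genes by Benjamini-Hochberg), and DESeq2 gave the same numbers. Among the surface receptors, Tlr2, Tlr4 and Tlr6 rose by 2.21, 3.29 and 3.54 times, while Tlr1 and Tlr5 did not pass. Among the endosomal receptors, Tlr7, Tlr8, Tlr9 and Tlr13 rose by 1.39, 2.30, 2.45 and 1.78 times, and Tlr3 fell to 0.833 of its WT level. Over all 18241 genes tested in this comparison 15.9% were higher and 15.1% were lower, 31% in all (16.9% and 15.3% with DESeq2), and the median log2 fold change was -0.014 over all genes and 0.99 over the 10 receptors. Standard errors (SE) are those of the log2 fold change. In 7 receptors every Atg5 CD11cKO library was above WT 21 and WT 22 and in 2 every one was below, against 27% and 28% of all genes. In this mixed fraction, fewer cells of a type and less RNA per cell cannot be told apart, for every gene given here.

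Over the 6 libraries as labelled, none of the 10 receptors passed with edgeR (adjusted p from 0.35 to 0.77) and none passed with DESeq2. Tlr4 alone had an unadjusted p under 0.05 in edgeR. Among all 17499 genes of that comparison 0% were called in either direction by edgeR, while 5.21% were higher and 9.17% lower at an unadjusted p under 0.05. DESeq2 called 0.245% higher and 2.07% lower. The 10 log2 fold changes had the same signs in both comparisons, and 9 of the 10 receptors in the library labelled WT 23 lay closer to the Atg5 CD11cKO mean than to the mean of WT 21 and WT 22, as did 74% of all genes.

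**Figure D1:**
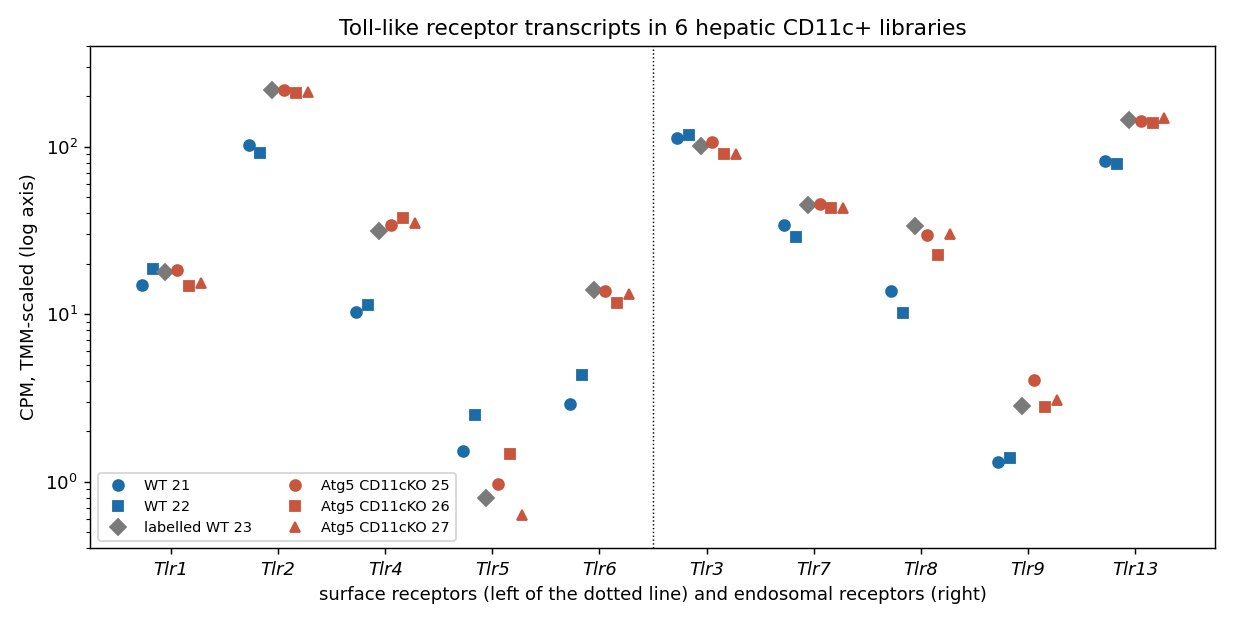
CPM of each receptor (log axis) in each of the 6 libraries, with surface receptors left and endosomal receptors right of the dotted line, 1 point per library and no averaging. The library labelled WT 23 (grey) lies with the Atg5 CD11cKO libraries (red) for Tlr2, at 218 CPM beside 208 to 219.6 CPM, and apart from WT 21 and WT 22 (blue) at 102 and 91.6 CPM.

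**Figure D2:**
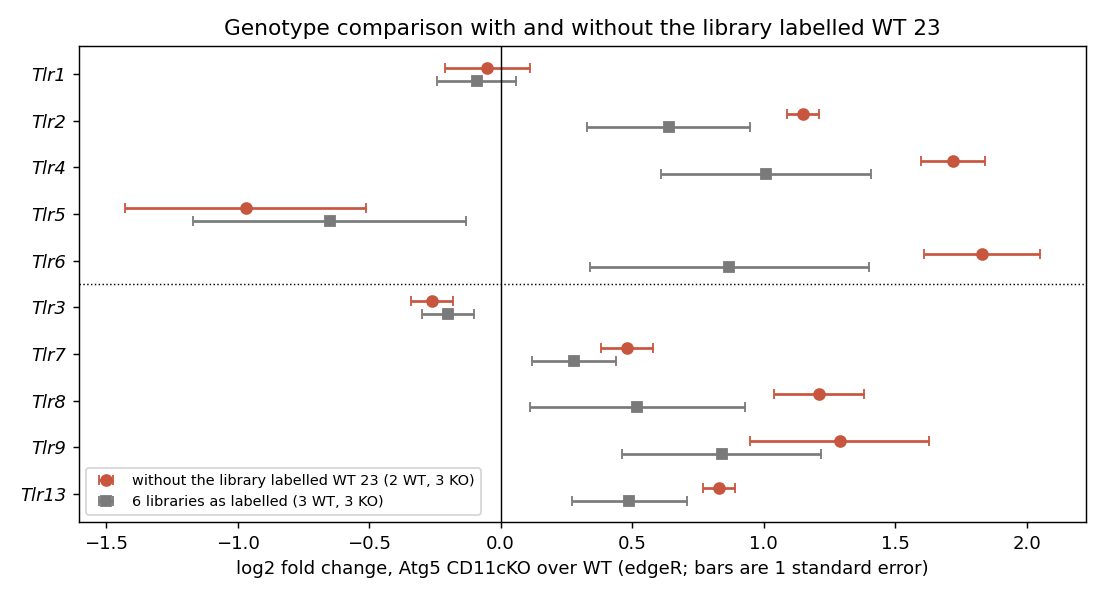
Log2 fold change of Atg5 CD11cKO over WT for each receptor, with bars of 1 standard error, in the 5-library comparison (red circles) and over the 6 libraries as labelled (grey squares). The largest value is that of Tlr6 at 1.83 in the 5-library comparison, and the standard error of Tlr2 goes from 0.06 to 0.31 when the library labelled WT 23 is included.

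To set the receptors against each other, CPM was divided by the kilobases of annotated exon of each gene. On that scale Tlr2 had the highest level of the 10 in both genotypes, at 32.0 ± 2.34 CPM per kilobase (SD, n = 2) in WT 21 and WT 22 and 70.6 ± 2.03 (SD, n = 3) in Atg5 CD11cKO cells. In WT 21 and WT 22 the order of levels was Tlr2, Tlr3, Tlr13, Tlr7, Tlr1, Tlr8, Tlr4, Tlr6, Tlr5 and Tlr9. In Atg5 CD11cKO cells it was Tlr2, Tlr13, Tlr3, Tlr7, Tlr8, Tlr4, Tlr1, Tlr6, Tlr9 and Tlr5. Neighbours in these orders did not overlap between libraries, except Tlr5 and Tlr9 in WT 21 and WT 22, and Tlr8 and Tlr4 in Atg5 CD11cKO cells. The lowest of the 10 were Tlr9, at 0.388 ± 0.0172 CPM per kilobase (SD, n = 2) and 0.949 ± 0.189 (SD, n = 3), and Tlr5, at 0.419 ± 0.142 (SD, n = 2) and 0.213 ± 0.0881 (SD, n = 3).

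Surface and endosomal receptors were then summed and set side by side in each library. The 5 surface receptors summed to 41.1 and 39.7 CPM per kilobase in WT 21 and WT 22, to 88.5, 83.4 and 84.7 in Atg5 CD11cKO 25, 26 and 27, and to 87.2 in the library labelled WT 23. The 5 endosomal receptors summed to 53.5 and 51.0 CPM per kilobase in WT 21 and WT 22, to 74.2, 67.2 and 71.6 in the Atg5 CD11cKO libraries, and to 73.9 in the library labelled WT 23. These 5 endosomal receptors therefore held 56.5% and 56.3% of the summed level per kilobase in WT 21 and WT 22. Their share was between 44.6% and 45.8% in the Atg5 CD11cKO libraries and 45.9% in the library labelled WT 23. Tlr11 and Tlr12 are in neither sum. Together they had 178 and 156 CPM in WT 21 and WT 22, and 132 to 149.8 CPM in the Atg5 CD11cKO libraries. In the library labelled WT 23 they had 148 CPM. How the shares would read with them counted as endosomal was not tested. Tlr2 by itself held 76.6% to 82.9% of the surface sum in the 6 libraries. In the endosomal sum, the share of Tlr3 was 40.6% and 43.9% in WT 21 and WT 22 but 24.3% to 27.6% elsewhere, while Tlr13 held 35.9% and 35.8% and then 44.7% to 48.1%. Which sum was the larger depended on the scale. By CPM, not divided by exon length, the endosomal sum was the larger in all 6 libraries, with 244 against 131 CPM in WT 21 and 329 against 287 CPM in Atg5 CD11cKO 25. These sums carry no test.

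**Figure D3:**
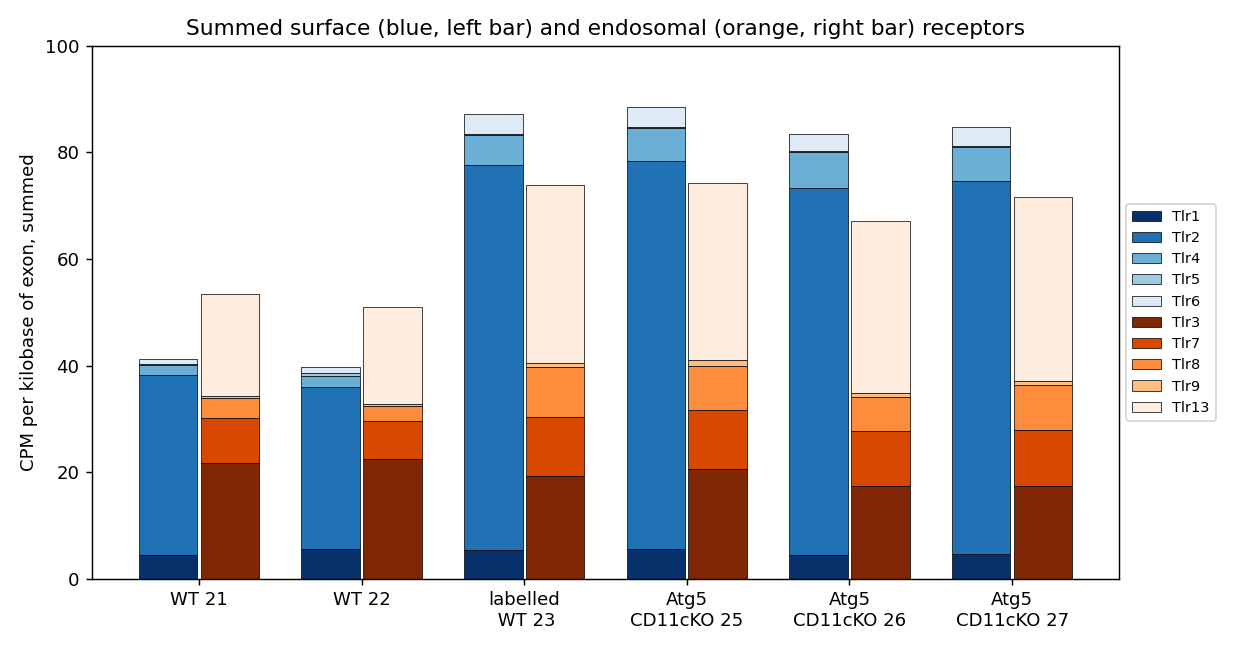
Stacked levels in CPM per kilobase of exon, with the 5 surface receptors (blue, left bar) and the 5 endosomal receptors (orange, right bar) of each library, and no error bars because each bar is 1 library. The endosomal bar is the taller in WT 21 and WT 22 (53.5 against 41.1 in WT 21) and the surface bar in the other 4 libraries (88.5 against 74.2 in Atg5 CD11cKO 25). By CPM, not divided by length, the endosomal sum is the larger in all 6 libraries. Tlr11 and Tlr12 are in neither bar, so the heights compare only the receptors shown.

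Tlr2 encodes the receptor for bacterial lipoproteins, which works as a dimer with Tlr1 or Tlr6, and lies on chromosome 3 from 83836272 to 83841767 (mm10). It had 102 and 91.6 CPM in WT 21 and WT 22, 219.6, 208 and 211 in Atg5 CD11cKO 25, 26 and 27 and 218 in the library labelled WT 23. The 3 Atg5 CD11cKO libraries and the library labelled WT 23 were all above WT 21 and WT 22, with no value between them. In the 5-library comparison, the log2 fold change was 1.15 (adjusted p = 4e-08 by edgeR, SE 0.06), and as labelled it was 0.64 (adjusted p = 0.36, SE 0.31). The promoter window of Tlr2 from RefSeq (GRCm38.p6, chr3:83841559-83841858, minus strand, 250 bases before to 50 after the start) is shown because it holds 2 matches to the letters searched for NF-kB on both strands, GGGA and CC with 4 bases between them, in capitals:
Tlr2: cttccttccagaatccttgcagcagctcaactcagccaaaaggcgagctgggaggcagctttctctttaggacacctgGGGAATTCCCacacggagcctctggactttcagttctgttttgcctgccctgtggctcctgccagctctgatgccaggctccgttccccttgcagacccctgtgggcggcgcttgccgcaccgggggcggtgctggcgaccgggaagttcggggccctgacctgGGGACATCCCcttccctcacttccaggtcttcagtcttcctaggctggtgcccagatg
A match to these letters was found in 20.7% of all 32851 promoter windows, and it is a description of the sequence, not a bound site.

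Tlr6 encodes the partner of Tlr2 for diacylated lipoproteins, and lies beside Tlr1, the partner for triacylated lipoproteins, on chromosome 5, where Tlr6 spans 64952031 to 64960097 and Tlr1 spans 64924679 to 64933563 (mm10). Tlr6 had 2.92 and 4.35 CPM in WT 21 and WT 22, 13.8, 11.6 and 13.2 in Atg5 CD11cKO 25, 26 and 27 and 13.9 in the library labelled WT 23. WT 21 and WT 22 were the lowest, with no overlap. In the 5-library comparison, its log2 fold change of 1.83 was the largest of the 10 receptors (adjusted p = 6e-05 by edgeR, SE 0.22), and as labelled it was 0.87 (adjusted p = 0.43, SE 0.53). Tlr1 was at 15.0 and 18.6 CPM in WT 21 and WT 22 and at 18.3, 14.7 and 15.4 CPM in the Atg5 CD11cKO libraries. The values of Tlr1 overlapped, with a log2 fold change of -0.05 (adjusted p = 0.84 by edgeR, SE 0.16), which without WT 22 was 0.12 and without Atg5 CD11cKO 26 was 0.01. In the library labelled WT 23 it had 17.9 CPM, and as labelled its log2 fold change was -0.09 (adjusted p = 0.77, SE 0.15). Per kilobase, Tlr6 was at 0.176 and 0.210 of the level of Tlr1 in WT 21 and WT 22 but at 0.675 to 0.768 of it elsewhere.

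The split of reads between Tlr1 and Tlr6 is uncertain, because the genes share sequence. Of the 50-base windows of their annotated transcripts, 15.4% of those of Tlr1 and 12.3% of those of Tlr6 occur in another gene, mostly in the other of the pair. Their longest identical coding stretch, from GENCODE vM21 transcripts, has 229 bases, lies at chr5:64925537-64925765 in Tlr1 and chr5:64953828-64954056 in Tlr6 (GRCm38, minus strand), and is shown as the part where a read fits both genes:
Tlr1 and Tlr6: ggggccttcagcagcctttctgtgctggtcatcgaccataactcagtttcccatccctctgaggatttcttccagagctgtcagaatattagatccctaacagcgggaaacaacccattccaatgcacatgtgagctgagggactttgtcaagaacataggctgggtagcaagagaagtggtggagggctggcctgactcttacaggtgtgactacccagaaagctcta
The sum of both genes does not depend on how shared reads were divided between them. Whether reads that fit both genes were counted at all is not known here. The sum was 17.9 and 23.0 CPM in WT 21 and WT 22, and 32.1, 26.3 and 28.6 CPM in the Atg5 CD11cKO libraries. In the library labelled WT 23 it was 31.9 CPM, again with WT 21 and WT 22 lowest. One of the RefSeq promoter windows of Tlr6 (GRCm38.p6, chr5:64959117-64959416, minus strand) is shown because it alone among the windows of these receptors holds the interferon-stimulated response element, searched on both strands as GAAA and GAAA with 2 bases between them and found in 3.44% of all windows. Its 2 matches overlap and are in capitals:
Tlr6: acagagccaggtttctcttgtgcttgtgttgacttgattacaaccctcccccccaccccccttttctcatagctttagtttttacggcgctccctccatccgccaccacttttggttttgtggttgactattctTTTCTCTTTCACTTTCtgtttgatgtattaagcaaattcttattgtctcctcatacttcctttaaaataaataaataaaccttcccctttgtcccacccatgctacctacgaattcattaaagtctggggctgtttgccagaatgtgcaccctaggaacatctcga

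Tlr4 encodes the receptor for lipopolysaccharide and lies on chromosome 4 from 66827584 to 66930284 (mm10). It was at 10.3 and 11.3 CPM in WT 21 and WT 22 and at 34.3, 37.3 and 35.2 CPM in Atg5 CD11cKO 25, 26 and 27. The library labelled WT 23 had 31.4 CPM, below every Atg5 CD11cKO library, which makes Tlr4 the only one of the 10 receptors whose genotypes did not overlap as labelled, where 9.58% of all genes had every Atg5 CD11cKO library highest and 8.73% had every one lowest. In the 5-library comparison, the log2 fold change was 1.72 (adjusted p = 6.1e-07 by edgeR, SE 0.12), and as labelled it was 1.01 (adjusted p = 0.35, SE 0.40). The receptor works with accessory proteins that hand it lipopolysaccharide. Of the 6 accessory genes of surface receptors listed, 4 were higher in the 5-library comparison and none was lower, with a median log2 fold change of 0.36. The shares over all genes were 15.9% higher and 15.1% lower. Cd14, the coreceptor for lipopolysaccharide, was at 402 and 389.6 CPM in WT 21 and WT 22 and at 545 to 552 CPM in the Atg5 CD11cKO libraries, a log2 fold change of 0.48 (adjusted p = 6.5e-07 by edgeR, SE 0.03). Ly96, which encodes MD-2, the lipopolysaccharide-binding partner of Tlr4, rose by 0.60 on the log2 scale (SE 0.14). Cd36, a scavenger receptor that assists Tlr2 dimers, rose by 0.38, and Cd180, a homologue of Tlr4 that lacks the signalling domain, rose by 0.34.

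Tlr5 encodes the receptor for flagellin, and lies on chromosome 1 from 182954788 to 182976044 (mm10). It had 49 and 84 counts in WT 21 and WT 22, 30, 48 and 20 counts in Atg5 CD11cKO 25, 26 and 27, and 25 counts in the library labelled WT 23. In CPM the highest Atg5 CD11cKO library (1.47) was just below the lowest of WT 21 and WT 22 (1.52). The log2 fold change of -0.97 did not pass (adjusted p = 0.14 by edgeR, SE 0.46, in the 5-library comparison), and as labelled it was -0.65 (adjusted p = 0.54, SE 0.52).

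Tlr3, the receptor for double-stranded RNA, was the only one of the 10 receptors called lower, and lies on chromosome 8 from 45395665 to 45411080 (mm10). It had 113 and 117 CPM in WT 21 and WT 22, 107, 90.1 and 90.3 in Atg5 CD11cKO 25, 26 and 27 and 100.5 in the library labelled WT 23. Atg5 CD11cKO 25 lay nearer to WT 21 than to the other Atg5 CD11cKO libraries, although the groups did not overlap in the 5-library comparison. The log2 fold change there was -0.26 (adjusted p = 0.026 by edgeR, SE 0.08), and as labelled it was -0.20 (adjusted p = 0.37, SE 0.10). The call was lost when WT 21, WT 22, Atg5 CD11cKO 26 or Atg5 CD11cKO 27 was also left out (log2 fold change -0.28, -0.23, -0.21 and -0.21, adjusted p = 0.055, 0.11, 0.089 and 0.11 in that order). An antisense gene, Gm45542, covers 7.32% of the exon bases of Tlr3, and whether counting used strand is not known here. Gm45542 was at 0.126 to 0.778 CPM in the 6 libraries. Its log2 fold change in the 5-library comparison was -1.72 and did not pass (adjusted p = 0.087 by edgeR). Whether its reads entered the counts of Tlr3 was not tested. The RefSeq promoter window of Tlr3 (GRCm38.p6, chr8:45410331-45410630, minus strand) is shown beside that of Tlr2, since these receptors went opposite ways and both hold matches to the NF-kB letters, here 3 of them, in capitals:
Tlr3: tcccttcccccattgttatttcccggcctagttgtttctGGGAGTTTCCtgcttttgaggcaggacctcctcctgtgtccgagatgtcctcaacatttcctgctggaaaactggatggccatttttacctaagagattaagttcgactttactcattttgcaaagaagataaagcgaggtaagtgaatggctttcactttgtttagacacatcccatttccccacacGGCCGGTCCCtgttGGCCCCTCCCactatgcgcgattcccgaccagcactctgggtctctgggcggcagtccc

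Tlr13, the receptor for bacterial ribosomal RNA in mice, had the second highest level per kilobase of the 10 receptors in Atg5 CD11cKO cells and lies on the X chromosome from 106143204 to 106160493 (mm10). It had 82.5 and 79.0 CPM in WT 21 and WT 22, 143, 139 and 148 in Atg5 CD11cKO 25, 26 and 27 and 144 in the library labelled WT 23. All 4 of the latter libraries were above WT 21 and WT 22. The log2 fold change was 0.83 in the 5-library comparison (adjusted p = 6.5e-07 by edgeR, SE 0.06) and 0.49 as labelled (adjusted p = 0.35, SE 0.22). Tlr13 and Tlr3 exchanged places, with Tlr3 above Tlr13 per kilobase in WT 21 and WT 22 and below it in the other 4 libraries.

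Tlr7 and Tlr8 are neighbours on the X chromosome, Tlr7 from 167304929 to 167330558 and Tlr8 from 167242696 to 167264329 (mm10), and both encode receptors for RNA. Tlr7, the receptor for single-stranded RNA, was at 34.1 and 29.1 CPM in WT 21 and WT 22, at 45.4, 42.9 and 43.0 CPM in Atg5 CD11cKO 25, 26 and 27, and at 44.8 CPM in the library labelled WT 23. It rose by 0.48 on the log2 scale in the 5-library comparison (adjusted p = 0.0036 by edgeR, SE 0.10), the smallest rise of the 7 receptors that rose, and as labelled its log2 fold change was 0.28 (adjusted p = 0.40, SE 0.16). Tlr8 had 13.8 and 10.2 CPM in WT 21 and WT 22, 29.7, 22.7 and 30.1 in the Atg5 CD11cKO libraries and 33.5 in the library labelled WT 23, the highest of all. Its log2 fold change was 1.21 without that library (adjusted p = 0.00027 by edgeR, SE 0.17) and 0.52 with it (adjusted p = 0.53, SE 0.41). Per kilobase, the level of Tlr7 was 2.18 and 2.52 times that of Tlr8 in WT 21 and WT 22, but only 1.18 to 1.66 times elsewhere.

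Tlr9, the receptor for unmethylated CpG DNA, lies on chromosome 9 from 106222598 to 106226883 (mm10) and had the lowest level per kilobase of the endosomal receptors. It had 42 and 47 counts in WT 21 and WT 22, 126, 91 and 98 counts in Atg5 CD11cKO 25, 26 and 27, and 89 counts in the library labelled WT 23. In CPM these were 1.31 and 1.39, then 4.04, 2.78 and 3.08, and 2.83, so that WT 21 and WT 22 were lowest. The log2 fold change was 1.29 in the 5-library comparison (adjusted p = 0.012 by edgeR, SE 0.34). Without Atg5 CD11cKO 25 as well, it was 1.13 and did not pass (adjusted p = 0.060), and as labelled it was 0.84 (adjusted p = 0.35, SE 0.38). The level of Tlr7 per kilobase was 9.57 to 22.2 times that of Tlr9 in the 6 libraries.

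The endosomal receptors depend on proteins that fold them, carry them to endosomes and cut them there. Of 10 such genes listed, 5 were higher and 3 lower in the 5-library comparison, with a median log2 fold change of 0.18. Among all genes tested there, 15.9% were higher and 15.1% lower. Lgmn, which encodes an asparaginyl endopeptidase able to cleave Tlr9, was at 302 and 304 CPM in WT 21 and WT 22 and at 610.5 to 623 CPM in the Atg5 CD11cKO libraries, a log2 fold change of 1.03 (adjusted p = 6.9e-10 by edgeR, SE 0.03). Slc15a4, the gene of a lysosomal histidine and peptide transporter that endosomal receptor signalling requires, had a log2 fold change of 0.95, and Hsp90b1, the gene of the chaperone that folds most Toll-like receptors, one of 0.51. Bloc1s2, which encodes a subunit of a lysosome-related organelle complex, fell by 0.39 on the log2 scale. Unc93b1, the carrier of the endosomal receptors, was at 1568 and 1522 CPM in WT 21 and WT 22 and at 1428 to 1482 CPM in the Atg5 CD11cKO libraries, a log2 fold change of -0.08 (adjusted p = 0.036, SE 0.03), and it is named outside the rule for named genes, after its values were seen.

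Receptors signal through adaptors, of which Myd88 serves all of the 10 receptors but Tlr3, while Ticam1 (TRIF) serves Tlr3 and, through Ticam2 (TRAM), Tlr4. Of 6 adaptor genes, 3 were higher and 1 lower in the 5-library comparison, with a median log2 fold change of 0.31, beside 15.9% and 15.1% of all genes. Ticam2 had 12.4 and 9.98 CPM in WT 21 and WT 22, 43.9, 45.6 and 39.7 in Atg5 CD11cKO 25, 26 and 27 and 40.9 in the library labelled WT 23. Its log2 fold change of 1.95 (adjusted p = 4.4e-07 by edgeR, SE 0.13) was the largest of the 48 accessory and signalling genes listed that passed in that comparison. Ticam1 had a log2 fold change of 1.23 (SE 0.17), Myd88 one of 0.40 and Pik3ap1, an adaptor that links receptors to phosphoinositide kinase, one of -0.25. As labelled, none of these adaptors passed (edgeR, adjusted p of 0.36 for Ticam2 and 0.38 for Ticam1).

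Behind the adaptors, 2 of 12 genes of kinases and ubiquitin ligases were higher and 3 lower in the 5-library comparison, with a median log2 fold change of -0.05, where 15.9% of all genes were higher and 15.1% lower. Irak4, the first kinase recruited by Myd88, fell from 21.5 and 25.1 CPM in WT 21 and WT 22 to 11.2, 10.8 and 12.0 CPM in the Atg5 CD11cKO libraries, a log2 fold change of -1.03 (adjusted p = 0.00014 by edgeR, SE 0.14). Irak1 and Tab1, which act after it, had log2 fold changes of -0.25 and -0.40, and Irak2 one of 0.47. Of 6 negative regulators, 2 were higher and 1 lower. Irak3, the gene of a kinase-dead relative that restrains Irak signalling, had a log2 fold change of 1.18 (SE 0.13), Tnfaip3, the gene of a deubiquitinase that restrains NF-kB, one of 0.46, and Sigirr, the gene of an inhibitory receptor of this superfamily, one of -0.56. Rnf216 did not pass, with a log2 fold change of 0.19 (adjusted p = 0.21 by edgeR, SE 0.11).

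Of 6 transcription factors at the end of the pathway, 2 were higher and 2 lower in the 5-library comparison. Irf7, which drives type I interferon genes after endosomal receptors fire, fell from 307 and 315 CPM in WT 21 and WT 22 to 188 to 191 CPM in the Atg5 CD11cKO libraries, a log2 fold change of -0.71 (adjusted p = 1.1e-07 by edgeR, SE 0.04). Irf8, a lineage factor of type 1 conventional and plasmacytoid DCs, had a log2 fold change of -0.45, Nfkb1 one of 0.23 and Irf5 one of 0.09. The other mouse Toll-like receptors, Tlr11 and Tlr12, which bind profilin of apicomplexan parasites, were at 63.0 to 90.5 CPM and 69.3 to 87.9 CPM in the 6 libraries. Tlr11 had a log2 fold change of -0.34 (adjusted p = 0.0093 by edgeR, SE 0.08), and Tlr12 one of -0.15 (adjusted p = 0.16, SE 0.08). In all, 18 of the 48 listed accessory and signalling genes were higher and 11 lower in that comparison, beside 15.9% and 15.1% of all genes, and over the 6 libraries as labelled none was called by edgeR or DESeq2. The median log2 fold change of the 48 genes was 0.10 in the 5-library comparison and 0.07 as labelled. As labelled, Irak4 had a log2 fold change of -0.73 (edgeR, adjusted p = 0.35), Irf7 one of -0.52 (0.34), Lgmn one of 0.61 (0.35), Cd14 one of 0.32 (0.34), Irak3 one of 0.63 (0.38) and Tlr11 one of -0.28 (0.34).

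**Figure D4:**
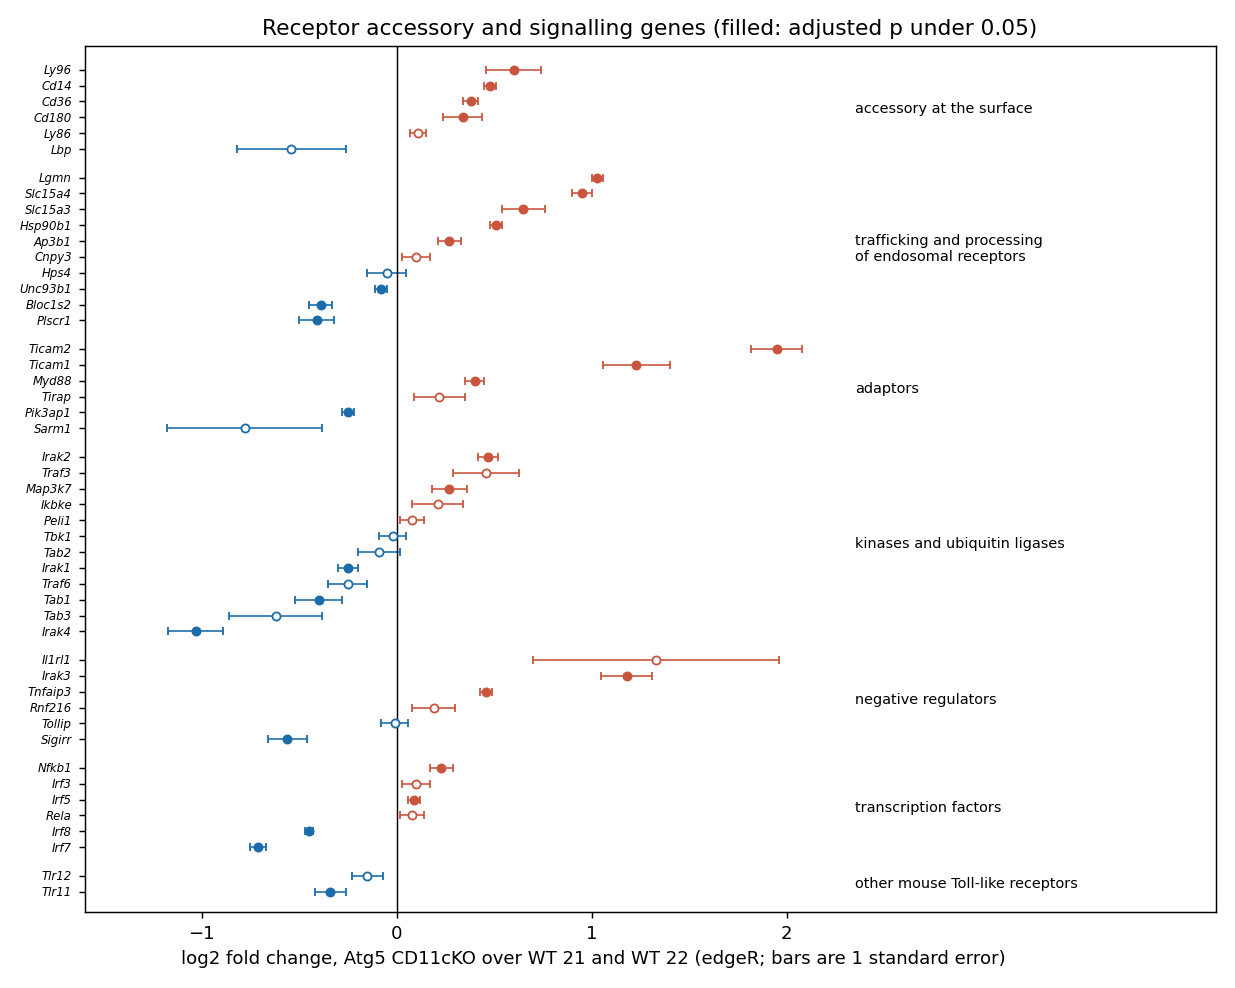
Log2 fold change of Atg5 CD11cKO over WT 21 and WT 22 for the 48 accessory and signalling genes, by list, with bars of 1 standard error and filled points for an adjusted p under 0.05 (edgeR). Values run from -1.03 for Irak4 to 1.95 for Ticam2. The lists of trafficking genes, adaptors, kinases, negative regulators and transcription factors hold passing genes in both directions.

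Markers of several cell types also differed between WT 21 and WT 22 and the other libraries, some higher and some lower. Their counts in the 5-library comparison stand beside 15.9% of all genes higher and 15.1% lower. Of 8 lipid-associated macrophage markers, 8 were higher in the 5-library comparison, and they summed to 628 and 632 CPM in WT 22 and WT 21 and to 3834 to 3875 CPM in the other 4 libraries. Their defining marker Gpnmb was at 24.3 and 28.1 CPM in WT 21 and WT 22, and at 998 to 1033 CPM in the Atg5 CD11cKO libraries. All 8 markers of resident Kupffer cells were lower, with sums of 1964 and 1979 CPM in WT 22 and WT 21 and of 942 to 982 CPM in the other libraries. Their defining marker Clec4f was at 593 and 596 CPM and then at 207 to 244 CPM. Of 6 markers of classical monocytes 2 were higher and 3 lower (sums of 1172 and 1224 CPM, and 1077 to 1185 CPM), with Ly6c2 at 309 and 324 CPM and then 101 to 106 CPM. Of 6 markers of patrolling monocytes 4 were higher and none lower (sums of 1342 and 1389.8 CPM, and 1522 to 1603 CPM), with Treml4 at 121 to 135 CPM in all libraries. The part of these shifts in the levels of Tlr2, Tlr4, Tlr6, Tlr8 and Tlr13 was not tested.

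Plasmacytoid DCs are known for Tlr7 and Tlr9, and type 1 conventional DCs for Tlr3, Tlr11 and Tlr12. For the DC marker counts too, the shares over all genes were 15.9% higher and 15.1% lower. All 10 plasmacytoid DC markers were lower in the 5-library comparison, where Tlr7 and Tlr9 rose, with sums of 2097 and 2117 CPM in WT 22 and WT 21 and of 859 to 871 CPM in the other libraries. Siglech, their defining marker, was at 758 and 772 CPM and then at 297 to 304 CPM. All 9 type 1 conventional DC markers were lower, with sums of 5306 and 5333 CPM and then of 3747 to 3813 CPM and a median log2 fold change of -0.51. Xcr1, their defining marker, was at 255 and 266 CPM and then at 174 to 185 CPM. Tlr3 and Tlr11 were called lower, though the call of Tlr3 was lost in most further omissions of a library. Tlr12 did not pass (log2 fold change -0.15, adjusted p = 0.16 by edgeR). Of 5 markers of type 2 conventional DCs 3 were higher and 2 lower (sums of 937 and 943 CPM, and 1278 to 1362 CPM), although Cd209a fell from 223 and 224 CPM to 33.5 to 35.1 CPM. The part of these shifts in the receptor levels was not tested.

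Transcripts of other blood, liver and pancreatic cells were also present. Counts of their markers are from the 5-library comparison, where 15.9% of all genes were higher and 15.1% lower. None of 8 B cell markers passed (sums of 65.6 to 83.5 CPM). Of 8 T and NK cell markers 7 were lower (714 and 757 CPM, and 317 to 326 CPM), with Cd3e at 44.4 and 45.3 CPM and then 20.2 to 22.5 CPM. Of 8 neutrophil markers, of which 6 were tested, 1 was higher and 3 lower (104 and 108 CPM, and 81.8 to 86.8 CPM), with S100a8 at 19.8 and 21.3 CPM and then 6.89 to 7.29 CPM. Of 8 sinusoidal endothelial markers 5 were higher and 1 lower (173 and 179 CPM, and 211 to 235 CPM), with Stab2 at 11.8 to 22.6 CPM. Of 8 stellate cell markers 2 were higher (28.5 and 30.2 CPM, and 46.9 to 57.2 CPM), with Lrat at 0.0637 to 1.48 CPM. All 8 hepatocyte markers were lower (1452 and 1478 CPM, and 253 to 266 CPM), with Alb at 532 and 544 CPM and then 93.4 to 106 CPM. All 8 pancreatic acinar markers were lower (16386 and 16695 CPM, and 314 to 330.4 CPM), with Prss2 at 1627 and 1644 CPM and then 32.8 to 38.7 CPM. In each of these lists the first values are the lower and the higher of WT 21 and WT 22, those after them span the other 4 libraries, and their part in the receptor levels was not tested. Over all 6 libraries as labelled, edgeR called none of these markers of any cell type, while DESeq2 called some lower in 8 of the 14 lists, among them all 8 acinar markers, and 1 stellate marker higher.

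**Figure D5:**
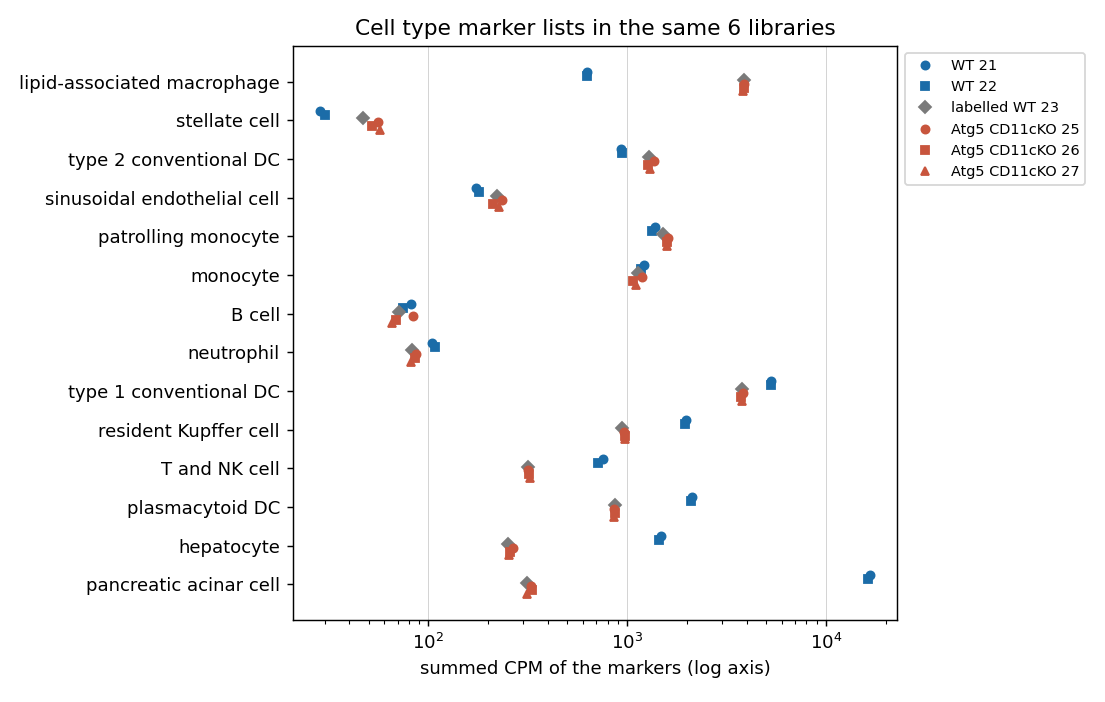
Summed CPM (log axis) of the markers of 14 cell types in each of the 6 libraries, 1 point per library, ordered by the ratio of Atg5 CD11cKO to WT 21 and WT 22. The library labelled WT 23 lies with the Atg5 CD11cKO libraries in lists such as lipid-associated macrophages (3859 beside 3834 to 3875 CPM) and hepatocytes (253 beside 254 to 266 CPM).

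To find genes with a profile like that of a receptor, the log2 CPM of each gene was centred on its mean over the 6 libraries, and likeness was the largest difference from the receptor in any library. Among 9285 genes with a mean of at least 10 CPM, those nearest to Tlr4 were Pla2g15, the gene of a lysosomal phospholipase, Gdf15, the gene of a stress-induced cytokine, and Mreg, the gene of melanoregulin, with largest differences of 0.0997, 0.105 and 0.131 on the log2 scale. Of those genes, 37 (0.398%) stayed within 0.25 of Tlr4 in every library. Nearest to Tlr9 were Tnfrsf11a, the gene of the receptor RANK, Myo1e, the gene of a class I myosin, and Gpr182, the gene of an endothelial receptor, with largest differences of 0.193, 0.207 and 0.208. With a minimum of 1 CPM in place of 10, only Tnfrsf11a of these 3 stayed among the nearest to Tlr9. The 6 libraries share 1 division, of WT 21 and WT 22 from the rest, so likeness over them describes little beyond the size of that step.

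The promoter windows of RefSeq covered 8 of the 10 receptors, with 10 windows in all. Tlr4 and Tlr7 were not among them. The letters GAGGAA, the core of the PU.1 motif of myeloid cells, were found on either strand in windows of 4 receptors and in 28.3% of all windows. Those of AP-1, TGANTCA, were found in a window of 1 receptor, Tlr9, and in 7.81% of all windows. Those searched for NF-kB were found in windows of 3 receptors, Tlr2, Tlr3 and Tlr5, and in 20.7% of all windows. Some receptors have more than 1 window, so counts of receptors and percents of windows are unlike measures, and no enrichment was tested. A window without a match says only that these letters are not in it.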

How the data were processed

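RNA-seq libraries of hepatic CD11c+ cells were read from the table of estimated counts that the authors deposited. The processing notes of the submitters list STAR 2.5.3a, Partek and bcl2fastq 2.17.1.14, with build mm10. How reads were counted, on which annotation and with what use of strand, was not given in the sources used, and 32.9% of the values were whole within 1e-06. A second deposited table holds a normalized signal, the estimated count plus 1 times 1 factor per library set by the authors, and served only as an alternative. Gene coordinates came from GENCODE vM21 (GRCm38), where 99.81% of the genes had the same start and an end 1 base short of the deposited one.

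Counts were rounded, filtered with filterByExpr and normalized with TMM. Tests across all genes used edgeR 4.0.16 in R 4.3.3, with limma 3.58.1 and DESeq2 1.42.0 as alternatives, beside other scalings and filters and the omission of each library. The SE is the log2 fold change over the square root of F. Scripts were tested on simulated data. There edgeR recovered 49% of simulated 2-fold changes over the 6 libraries as labelled and 51% without WT 23. Of simulated 4-fold changes it recovered 73% in both, and it called 13 and 5 unchanged genes. Named were all 10 receptors, Atg5 and Itgax, up to 4 genes of each pathway list by adjusted p among those at 5 CPM or more, the 3 genes nearest to Tlr4 and to Tlr9, and 1 defining marker per cell type, of which 1 is not reported here. The receptors and lists were chosen with earlier results of these data known. Figures used Python 3.11.15 with matplotlib 3.10.9.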

Additional observations from a re-analysis of the deposited data

How the results depend on the processing

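The genotype comparison turned on the library labelled WT 23. Over the 6 libraries as labelled, edgeR called 0 genes higher and 0 lower (911 and 1604 at an unadjusted p under 0.05), against 44 higher and 372 lower by DESeq2. When each library was left out in turn, the numbers ran from 0 to 2900 higher and from 0 to 2755 lower over all genes, from 0 to 7 higher and from 0 to 1 lower among the receptors, and, without the library labelled WT 23, were 18 higher and 11 lower among the listed accessory and signalling genes. Of the 6 omissions, only that of this library gave calls.

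Without that library, the number of receptors higher in Atg5 CD11cKO was 7 in 12 of 13 alternatives and 6 without Atg5 CD11cKO 25, and the number lower ran from 0 to 1 when a further library was left out. With only WT 21 or WT 22 left, that library is assumed to vary like the Atg5 CD11cKO libraries. The log2 fold change of Tlr1 ran from -0.20 to 0.12 as further libraries were left out, turned sign without WT 22 (0.12) and without Atg5 CD11cKO 26 (0.01), and never passed. The log2 fold change of Tlr9 was 0.82 on the log2(value + 1) scale of the normalized table, which understates low genes. Per kilobase in place of CPM, the endosomal receptors held 56.4% of the summed level of the 10 receptors in WT 21 and WT 22 and 45.3% in Atg5 CD11cKO cells. By CPM they held 64.9% and 53.0%. Tlr11 and Tlr12 are in none of these shares. No paired analysis was possible because WT and Atg5 CD11cKO libraries share no replicate number. Counts of Tlr5 (20 to 84) and Tlr9 (42 to 126) limit what could be detected for these genes.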
